A study of Mus musculus with 31 samples.

Results

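RNA sequencing of mouse colon at day 7 after induction was used to compare animals that lacked both TRADD and TAK1 in intestinal epithelial cells (DHO, n = 10 libraries) with animals that lacked TAK1 alone in these cells (HO, n = 10). The comparison takes in all genes of these 20 libraries, out of 31 in the series. In the labels' terms, DHO is TAK1 IEC-KO with Ripk1 D138N/D138N and Tradd IEC-KO, and HO is TAK1 IEC-KO with Ripk1 D138N/D138N, where IEC-KO stands for a knockout in intestinal epithelial cells. The 11 remaining libraries (WT) are Tak1f/f with Ripk1 D138N/D138N and are shown beside the comparison. All 3 groups, the controls included, thus carry the kinase-inactivating Ripk1 mutation, and none of them is wild type at Ripk1. The submitters asked which part TRADD plays in the colitis of these TAK1-deficient mice. Which Cre driver and inducing agent were used, and how old and of which sex the mice were, is not stated in the labels. Nor do the labels tie each library to an animal of its own, and the p-values below measure spread over libraries, which may be technical.

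TNF, a cytokine of inflammation, binds TNF receptor 1, which recruits the adaptor TRADD and the kinase RIPK1 to its cytoplasmic death domain. Ubiquitin ligases in this complex then bring in TAK1, a kinase that activates the IKK complex and MAP kinases and so the transcription factor NF-kB, whose targets include survival genes. Where TAK1 is missing, the same receptor can signal to caspase-8 and apoptosis or to RIPK3, MLKL and necroptosis, through RIPK1 kinase activity or through TRADD and FADD. In the gut such death of epithelial cells opens the barrier between the bacteria of the lumen and the tissue below.

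The libraries held between 30800000 and 40400000 fragments as read from the steps of the deposited FPKM values (fragments per kilobase of gene, scaled by the total of the library), with medians of 36600000 in HO and 39000000 in DHO. The noncoding RNA Gm15564 divided all 31 libraries into 17 with at most 0.0736 FPKM (HO 1 to 5, DHO 1 to 6 and 6 WT libraries) and 14 with 6.27 to 14.5 FPKM (HO 6 to 10, DHO 7 to 10 and 5 WT libraries). The labels name no batch, so the division is given as the low and the high Gm15564 set. Libraries HO 2, DHO 8 and DHO 9 stood apart from their groups. HO 2 reached the WT range in the score of general epithelium, but lay below every WT library in the scores of colonocytes, goblet cells, epithelial transcription factors, tight junctions and gasdermin C genes. DHO 8 and DHO 9 held cytokine transcripts near HO levels, but lay below every HO library in the neutrophil score. The share of the 12812 tested genes that lay inside the range of the WT libraries was 29.5% to 39.8% in the HO libraries. In DHO it was 36.2% in DHO 8, 41.0% in DHO 9, 51.7% in DHO 7 and 63.4% to 89.3% in the other 7 libraries.

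Tradd (chromosome 8, 105258575 to 105264594, GRCm38), the gene deleted in DHO and not in HO, was the first to be examined. It lay at 1.36 to 3.89 FPKM (median 2.86) in DHO, 12.4 to 59.2 FPKM (median 21) in HO and 45.9 to 97.5 FPKM (median 89.1) in WT. No DHO library overlapped with any HO or WT library, and of the 12812 genes tested Tradd was the only 1 for which all DHO libraries lay below all others. The fall from HO to DHO was 2.72 (SE 0.228, adjusted p = 1.31e-11) on the log2 scale in limma. In the low set the HO libraries had 22.6 to 59.2 FPKM and the DHO libraries 1.86 to 3.76, and in the high set 12.4 to 19.4 and 1.36 to 3.89. The highest HO value belonged to HO 2, the HO library with the highest general epithelium score.

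Map3k7, which encodes TAK1 and is deleted in the epithelium of both groups, lay at 11.6 to 16.9 FPKM (median 13.6) in HO and 8.42 to 16.7 FPKM (median 10.4) in DHO. The groups overlapped, and the small fall of 0.27 (SE 0.106, adjusted p = 0.0264) on the log2 scale was not seen in the high set, where the difference was 0.04 (adjusted p = 0.762). A value per gene over whole tissue counts undeleted exons and other cell types and does not measure the deletion. Ripk1 lay at 4.05 to 5.31 FPKM (median 4.43) in HO and 3.1 to 5.42 FPKM (median 3.85) in DHO and fell by 0.2 (SE 0.08, adjusted p = 0.0312). Ripk1 had a high-set difference of -0.01 (adjusted p = 0.956), and after rescaling of the libraries neither Map3k7 nor Ripk1 passed, at -0.11 (adjusted p = 0.44) and -0.05 (adjusted p = 0.625). The point mutation cannot be read from its level.

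**Figure D1:**
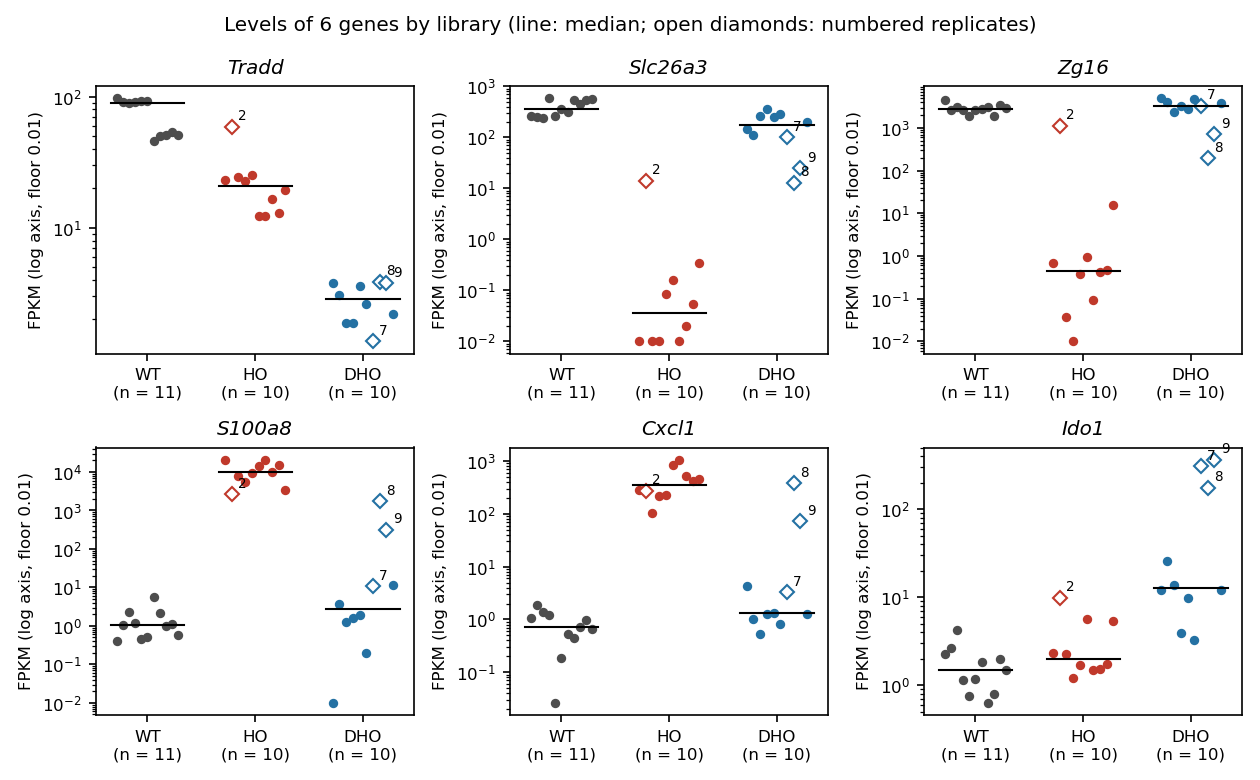
FPKM on a log axis, with values under 0.01 drawn at 0.01, of Tradd, the colonocyte exchanger Slc26a3, the goblet cell lectin Zg16, the calprotectin subunit S100a8, the chemokine Cxcl1 and the tryptophan-degrading enzyme Ido1 in 11 WT, 10 HO and 10 DHO libraries. Each point is a library, the line is the median, and the numbered diamonds are HO 2 and DHO 7, 8 and 9. Tradd separates DHO (1.36 to 3.89 FPKM) from both other groups, while Slc26a3 and S100a8 place most DHO libraries beside WT, with DHO 8 and DHO 9 nearest to HO.

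Most of the measured transcriptome differed between DHO and HO, with epithelial genes higher and genes of neutrophils, monocytes, cytokines and matrix enzymes lower in DHO than in HO. Of 12812 genes tested, 8805 (68.7%) passed an adjusted p of 0.05, 4996 (39%) higher and 3809 (29.7%) lower in DHO. By at least 2-fold, 2162 were higher and 1855 lower. The 10 DHO and the 10 HO libraries did not overlap for 1879 genes (14.7%), of which 932 (7.27%) were higher in DHO and 947 (7.39%) lower. The median difference over all genes tested was 0.1 on the log2 scale, and each list median below is to be read beside it. Likewise the shares of 39% higher and 29.7% lower over all genes are to be read beside the count of each list. Where a gene is followed by a value in parentheses, the value is its log2 difference, DHO minus HO, and SE is the standard error of that difference. In the low set alone 4890 genes were higher and 4068 lower, and in the high set alone 4286 and 3395. Without DHO 8 and DHO 9 the counts were 5116 and 3990, and without HO 2 they were 5043 and 3849. After every library was rescaled to the same sum, the median over all genes was 0.24 and the calls split into 6025 higher and 3180 lower (65.5% higher in place of 56.7%).

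**Figure D2:**
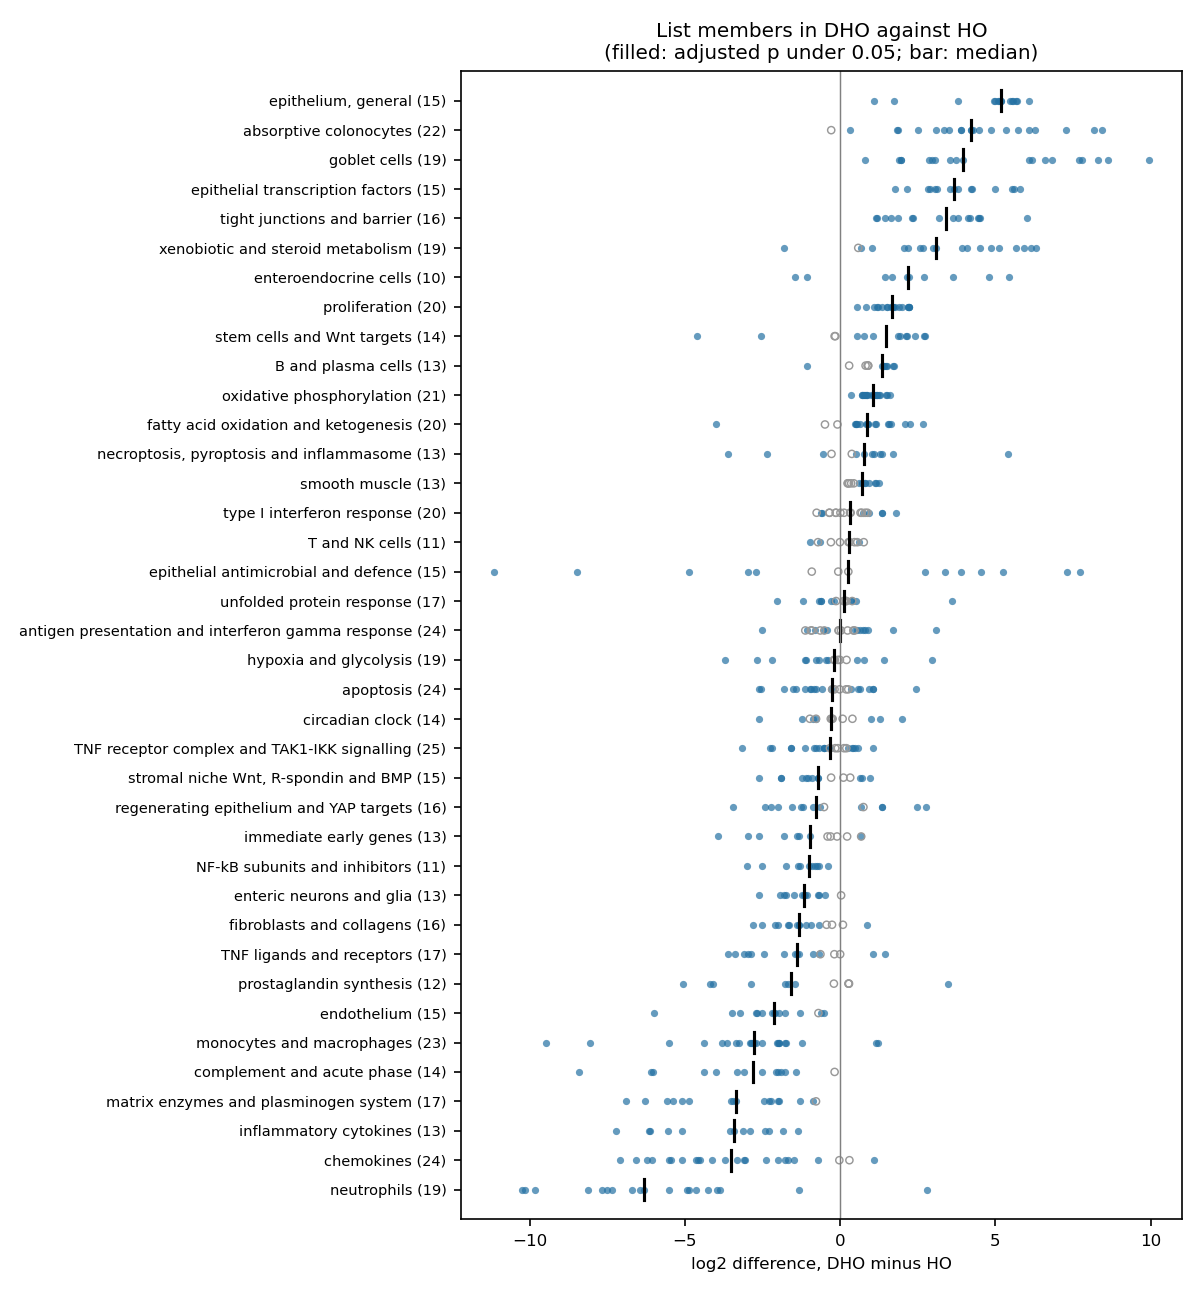
Log2 difference of DHO minus HO for each tested member of the 38 gene lists with at least 10 tested members, ordered by their medians (black bars). The number of members is in parentheses, and filled points passed an adjusted p of 0.05. Epithelial lists lie to the right, led by the general epithelium list at a median of 5.17, and inflammatory lists to the left, down to the neutrophil list at -6.33.

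Among named, expressed genes the 12 largest increases included products of goblet cells and of surface colonocytes. They were Mptx1, Zg16, Sval1, Spink1, Gsdmc4, Tff3, Sycn, Aqp8, Klk1, Clca1, Atp12a and Tgm3, with log2 differences from 8.0 to 10.09. Mptx1, a mucosal pentraxin, lay at 0 to 5.19 FPKM (median 0.095) in HO and 22.1 to 3394 FPKM (median 1289) in DHO, and it rose by 10.09 (SE 0.627, adjusted p = 3.16e-14). Its lowest DHO value was that of DHO 8, and still exceeded every HO library. Tgm3, a transglutaminase, lay at 0.083 to 0.432 FPKM (median 0.174) in HO and 3.0 to 510.3 FPKM (median 349) in DHO. Differences of this size rest on HO values near 0, and the 0.5 FPKM added before the logarithm sets how large they come out.

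The 12 largest decreases were Saa3, Ngp, S100a8, S100a9, Chil3, Wfdc21, Lcn2, Hp, Stfa2, Cstdc5, Retnlg and Arg1, from -11.16 to -8.06. Most of them encode granule, cytoplasmic or secreted proteins of neutrophils and monocytes or acute phase proteins. The acute phase protein gene Saa3 lay at 16460 to 51670 FPKM (median 38350) in HO and 1.12 to 2131 FPKM (median 10.3) in DHO, and fell by 11.16 (SE 0.93, adjusted p = 1.13e-11). No DHO library reached the lowest HO library, and without DHO 8 and DHO 9 the highest DHO value was 31.9 FPKM. Lcn2, which withholds iron siderophores from bacteria, lay at 2918 to 7880 FPKM (median 5619) in HO and 4.75 to 613 FPKM (median 7.11) in DHO. Arg1, the arginase of alternatively activated and immature myeloid cells, lay at 66.1 to 712 FPKM (median 406) in HO and 0.228 to 7.34 FPKM (median 0.492) in DHO, and its highest DHO value was far below the HO range.

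All 15 genes of the general epithelium list rose, with a median of 5.17 (0.1 over all genes). Epcam, a surface adhesion protein of epithelia, lay at 0.646 to 543 FPKM (median 14.6) in HO and 382 to 1011 FPKM (median 929) in DHO and rose by 5.56 (SE 0.654, adjusted p = 8.97e-09). Vil1, the villin of the brush border, lay at 0.0834 to 179 FPKM (median 1.93) in HO and 127 to 260.3 FPKM (median 211) in DHO, a rise of 5.71 (SE 0.636, adjusted p = 3.21e-09). HO 2 lay inside the DHO range for both genes, and the other HO libraries lay below it. The adhesion protein gene Cdh1 did not overlap even with HO 2, at 0.74 to 106 FPKM (median 5.11) in HO and 169.5 to 394 FPKM (median 250.3) in DHO (5.17, SE 0.518, adjusted p = 4.02e-10). In bulk tissue fewer cells of a type and less RNA per cell cannot be told apart. The list score, which is the mean log2(FPKM + 0.5) of the members, ran over 0.8 to 8.46 in HO, 7.86 to 8.68 in DHO and 8.21 to 8.47 in WT. The epithelial markers that define the tissue were thus close to 0 in some HO libraries, with Vil1 at 0.0834 FPKM in the lowest. Against WT, from which 2719 of the 12812 genes (21.2%) differed in DHO, none of the 15 members passed. Between HO and DHO the epithelium score differs as given here and the neutrophil score as given further below, and their part in the other results was not tested.

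Transcription factors that set intestinal identity rose in all 15 members tested (median 3.68). Hnf4a, a nuclear receptor that drives enterocyte genes, lay at 0.0138 to 89.2 FPKM (median 1.03) in HO and 62.3 to 208 FPKM (median 154) in DHO (5.8, SE 0.595, adjusted p = 6.49e-10). The groups did not overlap for the epithelial factor Grhl2 (3.06), whereas they did for Cdx2 (3.1). HO 2 had 89.2 FPKM of Hnf4a and 80.1 of Cdx2.

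Of 22 genes of absorptive colonocytes, the cells that take up salt and water, 21 rose and 1 did not pass (median 4.22). Slc26a3, the chloride and bicarbonate exchanger of the surface, lay at 0 to 14.2 FPKM (median 0.0366) in HO and 12.9 to 352 FPKM (median 171) in DHO (7.28, SE 0.542, adjusted p = 1.28e-12). Only HO 2, at 14.2 FPKM, reached the DHO range, where DHO 8 had 12.9 and DHO 9 had 25.1. The proton and potassium pump Atp12a lay at 0.0164 to 1.22 FPKM (median 0.136) in HO and 69.9 to 338 FPKM (median 227) in DHO (8.18, SE 0.227, adjusted p = 5.64e-23). The sodium channel subunit Scnn1a lay at 0.42 to 2.48 FPKM (median 0.798) in HO and 5.88 to 48.5 FPKM (median 25.2) in DHO (3.9, SE 0.262, adjusted p = 1.60e-13), also with no overlap. The water channel Aqp8 (8.44), the carbonic anhydrase Car1 (6.08) and the peptide Guca2a (6.27), which signals to the guanylate cyclase of the same cells, rose too. Against WT, 6 of the 22 members were lower in DHO (8.7% of all genes) and 2 higher (12.5%), but 0 were lower in the low set and 12 in the high set. Fits within a set also held its HO libraries, whose spread entered the p-values against WT. Slc26a3 was lower than in WT by 1.62 (adjusted p = 0.0298), and without DHO 8 and DHO 9 the list had 3 members lower than WT and 1 higher. The chloride channel regulator gene Clca4b, chosen after its values were seen, was the member highest above WT. It lay at 1.24 to 6.99 FPKM (median 2.31) in WT, 0.0217 to 401 FPKM (median 0.705) in HO, where HO 2 held the highest value, and 20.1 to 806 FPKM (median 183) in DHO, a difference from WT of 5.58 (adjusted p = 1.36e-04).

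All 19 goblet cell genes tested rose (median 3.94). Muc2, the gel-forming mucin of the colon, lay at 0.0274 to 81.8 FPKM (median 0.151) in HO and 29.1 to 219.9 FPKM (median 76.8) in DHO (6.08, SE 0.601, adjusted p = 3.26e-10). Zg16, a lectin that holds Gram-positive bacteria in the mucus, lay at 0 to 1128 FPKM (median 0.447) in HO and 193 to 4974 FPKM (median 3270) in DHO (9.96, SE 0.912, adjusted p = 7.49e-11). The trefoil peptide Tff3 (8.63), the metalloprotease Clca1 (8.31) and the disulfide isomerase Agr2 (7.79) rose likewise. For all 5 genes HO 2 was the only HO library that reached the DHO range. The only member that differed from WT in DHO was Retnlb, a secreted antibacterial protein, which did not pass without DHO 7, DHO 8 and DHO 9 or in the low set. It lay at 0.113 to 13.6 FPKM (median 0.987) in WT, 0 to 282 FPKM (median 0.0934) in HO and 0.583 to 51.6 FPKM (median 17.9) in DHO.

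Of 10 enteroendocrine genes, 8 rose and 2 fell (median 2.18). Insl5, a peptide hormone of distal colonic cells, lay at 0.102 to 13.9 FPKM (median 1.07) in HO and 51.2 to 123 FPKM (median 86.9) in DHO (5.43, SE 0.412, adjusted p = 1.78e-12). Neurog3, the factor that commits progenitors to this lineage, lay at 0 to 0.234 FPKM (median 0) in HO and 0.456 to 5.59 FPKM (median 1.94) in DHO (2.14, SE 0.219, adjusted p = 6.34e-10), and neither gene overlapped between the groups. The granin Chga (2.23) and the glucagon precursor Gcg (3.63) rose. The 2 that fell were somatostatin, Sst (-1.44, SE 0.296, adjusted p = 7.48e-05), and the secretory chaperone Scg5 (-1.06, SE 0.127, adjusted p = 1.21e-08), which enteric neurons are also known to express. Of 6 tuft cell genes tested, 5 fell and none rose (median -1.4). Those with the smallest p were Alox5 (-2.88, SE 0.221, adjusted p = 2.30e-12) and Ptgs1 (-1.69, SE 0.128, adjusted p = 1.67e-12), genes for enzymes of eicosanoid synthesis that myeloid and other cells also express. The tuft cell genes Pou2f3 and Trpm5 were under the limit for testing, at no more than 0.418 and 0.754 FPKM in DHO and 0.124 and 0.142 in HO.

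Of 14 genes of intestinal stem cells and Wnt targets, 10 rose, 2 fell and 2 did not pass (median 1.46). Lgr5, the receptor for R-spondins that marks stem cells, lay at 0 to 0.196 FPKM (median 0.036) in HO and 0.53 to 2.7 FPKM (median 1.7) in DHO (1.87, SE 0.171, adjusted p = 6.47e-11). Axin2, a Wnt target that feeds back on the pathway, lay at 0.617 to 1.74 FPKM (median 0.885) in HO and 3.37 to 8.77 FPKM (median 6.47) in DHO (2.15, SE 0.148, adjusted p = 2.54e-13). Ascl2 (1.93), a factor of the same cells, did not overlap between the groups, nor did the other 2. Cd44 and Olfm4 fell, the first a receptor for hyaluronan that leukocytes carry too, the second a secreted protein that mouse neutrophils also hold in their granules. Olfm4 lay at 2.97 to 44 FPKM (median 19.9) in HO and 0 to 2.84 FPKM (median 0.0202) in DHO (-4.6, SE 0.372, adjusted p = 6.20e-12). Proliferation genes rose in all 20 members (median 1.67). Mki67 lay at 2.6 to 14.4 FPKM (median 5.42) in HO, 17.1 to 39.9 FPKM (median 30.6) in DHO and 12.3 to 45 FPKM (median 16.8) in WT (2.21, SE 0.26, adjusted p = 9.01e-09 between HO and DHO, with no overlap). Against WT 17 of the 20 genes were higher in DHO, but 0 were in the low set alone, 8 in the high set alone and 2 without DHO 7, DHO 8 and DHO 9.

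All 16 tight junction and barrier genes tested rose (median 3.41), and none differed from WT. Cldn8, a claudin of the distal colon that seals against sodium, lay at 0.0371 to 1.73 FPKM (median 0.167) in HO and 21.2 to 90.0 FPKM (median 67.1) in DHO (6.03, SE 0.302, adjusted p = 2.56e-16). Its groups did not overlap. Marveld2, the tricellulin of three-cell contacts, lay at 0.135 to 5.38 FPKM (median 0.527) in HO and 5.28 to 13.9 FPKM (median 12.1) in DHO (3.19, SE 0.256, adjusted p = 5.53e-12), with HO 2 at the top of the HO range. The gasdermin C genes, which encode pore-forming proteins of the intestinal surface, rose in all 3 members tested (median 6.56), again with no overlap. Gsdmc4 lay at 0.0191 to 1.89 FPKM (median 0.183) in HO and 42.9 to 565 FPKM (median 416) in DHO (8.64, SE 0.336, adjusted p = 4.75e-19). These paralogs are near-identical, so their separate values are uncertain. HO 2, whose general epithelium score was in the WT range, scored 0.08 on this family, against -0.98 to -0.58 in the other HO libraries and 6.39 to 7.4 in WT.

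Of 15 epithelial antimicrobial and defence genes 7 rose and 5 fell (median 0.26), shares near those over all genes. Lypd8, which keeps flagellated bacteria off the colonic surface, lay at 1.8 to 2915 FPKM (median 26.6) in HO and 3173 to 14390 FPKM (median 10750) in DHO (7.72, SE 0.754, adjusted p = 2.53e-10). The antibody transporter Pigr (7.31), the plasma cell attractant Ccl28 (5.24) and the oxidase Duox2 (3.89) rose too. Lower were Lcn2 and Saa3, described above, the inducible nitric oxide synthase Nos2 (-4.86) and Saa2 (-2.97). The serum amyloid genes thus moved apart, since Saa1 lay at 30.7 to 106 FPKM (median 74.8) in HO and 115 to 4027 FPKM (median 2370) in DHO (4.52, SE 0.418, adjusted p = 8.79e-11). Saa1 and Saa2 are near-identical, and reads shared between them make the split between these 2 genes uncertain. Reg3g, a bactericidal lectin, did not pass (-0.92, SE 0.973, adjusted p = 0.409) and was high in HO 2 alone, at 2739 FPKM.

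Metabolic genes mostly rose. Of 19 genes of xenobiotic and steroid metabolism, 17 rose and 1 fell (median 3.08). The sulfotransferase Sult1b1 lay at 0 to 11.5 FPKM (median 0.046) in HO and 18.6 to 102 FPKM (median 82.2) in DHO (6.32, SE 0.415, adjusted p = 1.07e-13). The gene that fell was the carboxylesterase Ces1g (-1.81, SE 0.292, adjusted p = 2.33e-06). Oxidative phosphorylation rose in all 21 members, by a smaller median of 1.06 (0.7 in the high set). Uqcrc2, a core subunit of complex III, lay at 54.1 to 91.2 FPKM (median 62.2) in HO and 107 to 227 FPKM (median 198) in DHO (1.5, SE 0.118, adjusted p = 3.44e-12). Fatty acid oxidation and ketogenesis had 17 of 20 members higher and 1 lower (median 0.88). Acadm, which oxidises medium-chain fatty acids, lay at 17.8 to 31.2 FPKM (median 21.4) in HO and 24.6 to 68.4 FPKM (median 57.4) in DHO (1.13, SE 0.149, adjusted p = 8.36e-08). The member that fell was the lipoprotein lipase inhibitor Angptl4 (-4.01, SE 0.338, adjusted p = 1.48e-11). Hypoxia and glycolysis genes went both ways (4 higher and 9 lower of 19), with the lactate exporter Slc16a3 down (-3.71) and the carbonic anhydrase Car9 up (2.95).

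The TNF pathway itself was lower in DHO at the level of ligands and receptors. Of 17 TNF family ligands and receptors tested, 12 fell, 2 rose and 3 did not pass (median -1.4). In the high set alone 8 fell (median -0.71), and Tnf did not pass there, at -1.15 (adjusted p = 0.152). Tnf lay at 9.64 to 56.7 FPKM (median 17.9) in HO and 0.0928 to 24.7 FPKM (median 0.762) in DHO, and fell by 3.11 (SE 0.537, adjusted p = 6.56e-06). DHO 8, at 24.7 FPKM, and DHO 9, at 23.3, lay inside the HO range, and without them the highest DHO value was 4.51. Tnfrsf1a, the receptor that binds TRADD, lay at 131 to 209 FPKM (median 158) in HO and 45.1 to 128 FPKM (median 54.4) in DHO with no overlap (-1.32, SE 0.153, adjusted p = 6.95e-09). The leukocyte receptor Tnfrsf1b fell by 2.45 (SE 0.271, adjusted p = 2.79e-09) and the death receptor Fas by 1.8 (SE 0.172, adjusted p = 1.74e-10). The ligand Tnfsf14 fell by 2.97 (SE 0.27, adjusted p = 6.11e-11). The 2 that rose were Tnfsf10, the ligand TRAIL (1.44, SE 0.27, adjusted p = 2.20e-05), and the death receptor Tnfrsf21 (1.06, SE 0.149, adjusted p = 2.22e-07).

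Inside the cell, the receptor complex and the TAK1 and IKK genes moved less, with 6 of 25 higher, 14 lower and a median of -0.34. The ubiquitin ligase Birc2 lay at 9.77 to 16.3 FPKM (median 13.4) in HO and 5.64 to 8.61 FPKM (median 6.83) in DHO (-0.86, SE 0.0982, adjusted p = 5.04e-09), with no overlap. Birc3, its inducible relative, fell by 1.12 (SE 0.155, adjusted p = 1.71e-07), and Traf2, the scaffold that carries both, by 0.31 (SE 0.114, adjusted p = 0.0161). Of the linear ubiquitin ligase, Rnf31 (0.38) and Rbck1 (0.4) rose. The kinase subunits Ikbkb (-0.51) and Chuk (0.26) moved in opposite directions and by less than 1 on the log2 scale. Within the high set 9 of the 25 fell, Traf2 and Ikbkb did not pass there, Rnf31 did not pass in the low set, and Chuk passed neither in the low set nor without DHO 8 and DHO 9. The kinase gene Map3k8 (-3.15) and Tnfaip3 (-2.26, SE 0.266, adjusted p = 9.38e-09), which encodes the deubiquitinase A20 and is induced by NF-kB, fell by more. The A20-binding protein Tnip1 (-1.57, SE 0.134, adjusted p = 1.78e-11) and the IKK relative Ikbke (-2.18, SE 0.174, adjusted p = 4.76e-12) fell without overlap. All 11 NF-kB subunits and inhibitors fell (median -0.99), and 8 did in the high set (median -0.63). Nfkbia, the inhibitor that NF-kB resynthesises, lay at 234 to 495 FPKM (median 344) in HO and 28.7 to 148 FPKM (median 33.8) in DHO (-3.0, SE 0.225, adjusted p = 1.53e-12), and Rela fell by 0.92 (SE 0.127, adjusted p = 1.52e-07). The neutrophil score lay at 5.85 to 8.28 in HO and 0.06 to 5.59 in DHO beside these genes.

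Of 24 apoptosis genes, 7 rose and 12 fell (median -0.28), against 39% and 29.7% of all genes. Within the high set 8 rose and 8 fell. The initiator caspase gene Casp8 lay at 19.5 to 43.3 FPKM (median 24.6) in HO, 35.3 to 86.5 FPKM (median 45.5) in DHO and 26.5 to 38.5 FPKM (median 32.9) in WT (0.92, SE 0.141, adjusted p = 1.10e-06 between HO and DHO). Its adaptor Fadd rose by 0.57 (SE 0.0947, adjusted p = 3.49e-06). Cflar, the inhibitor of caspase-8 that NF-kB induces, fell by 1.12 (SE 0.205, adjusted p = 1.54e-05) and the BH3-only gene Bmf by 1.42 (SE 0.175, adjusted p = 2.08e-08). Of 13 genes of necroptosis, pyroptosis and the inflammasome, 8 rose and 3 fell (median 0.75). Ripk3 lay at 29 to 76.2 FPKM (median 33.7) in HO and 16.3 to 64.1 FPKM (median 23.3) in DHO and did not pass (-0.28, SE 0.218, adjusted p = 0.256). Its substrate Mlkl (0.5, SE 0.217, adjusted p = 0.0413) and the nucleic acid sensor Zbp1 (0.75, SE 0.337, adjusted p = 0.0481) rose just past the threshold, but without DHO 7, DHO 8 and DHO 9 they were at 0.03 (adjusted p = 0.871) and 0.12 (adjusted p = 0.686). Without these libraries Ripk3 was lower than in HO, at -0.68 (adjusted p = 7.84e-04). All 3 were higher in DHO than in WT, Ripk3 by 1.54 (adjusted p = 3.10e-05), Mlkl by 1.28 (adjusted p = 2.95e-04) and Zbp1 by 2.13 (adjusted p = 1.42e-04). Among inflammasome genes, the epithelial sensor Nlrp6 (5.42, SE 0.427, adjusted p = 3.93e-12), the pore protein Gsdmd (1.08) and Casp1 (1.7, SE 0.132, adjusted p = 2.81e-12) rose, and the myeloid sensor Nlrp3 fell (-3.62, SE 0.416, adjusted p = 5.72e-09). Ninj1, which ruptures the membrane of dying cells, fell by 2.37 (SE 0.188, adjusted p = 4.49e-12), with no overlap.

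**Figure D3:**
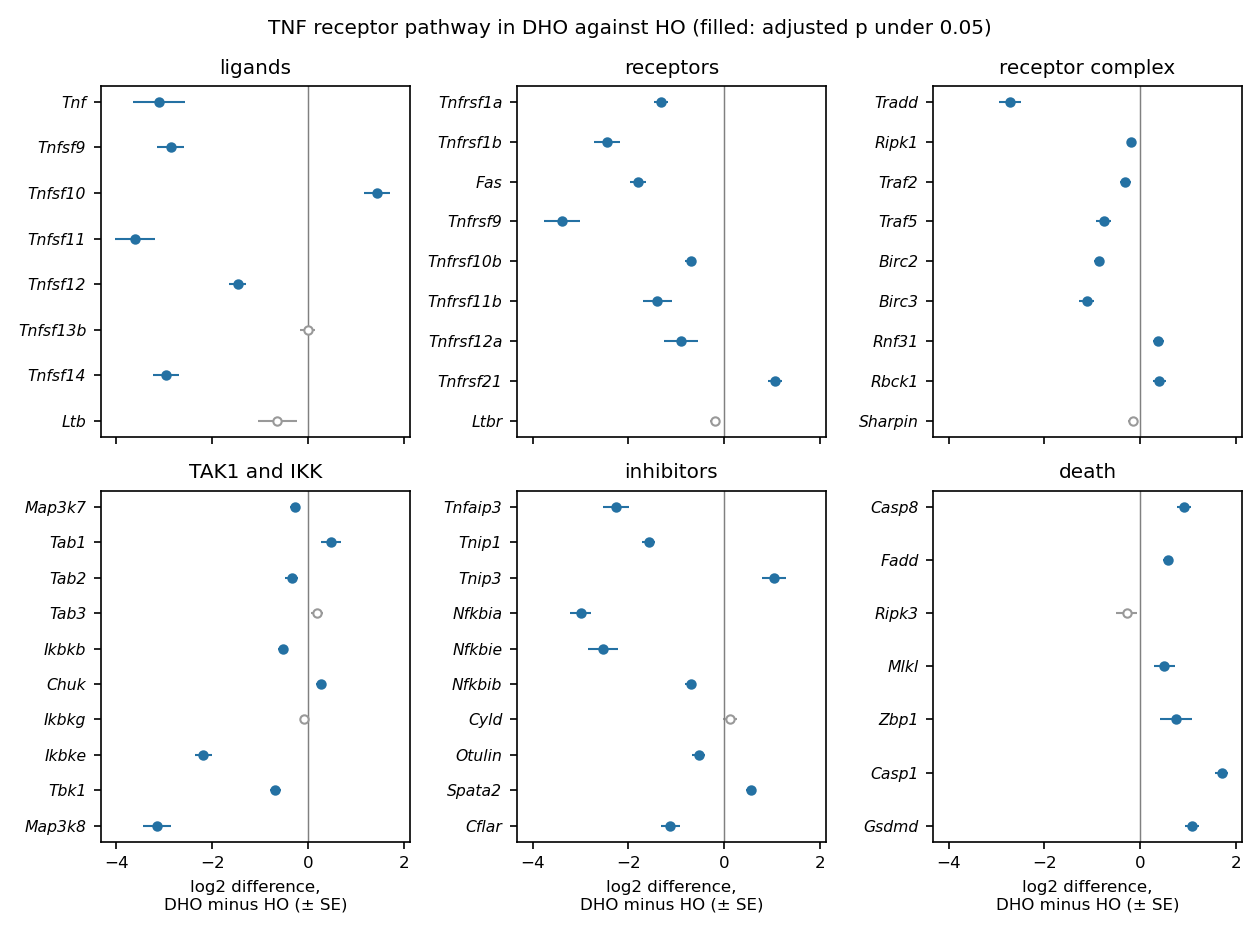
Log2 difference of DHO minus HO with its SE in limma (31 libraries fitted, 10 per compared group) for members of the TNF receptor pathway by role. Filled points passed an adjusted p of 0.05. Ligands, receptors and inhibitors lie mostly to the left of 0, Tradd is at -2.72, and Casp1 and Casp8 lie to the right of 0.

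Inflammatory cytokines fell in all 13 members tested (median -3.42). Il1b lay at 220.1 to 589 FPKM (median 336) in HO and 1.14 to 434 FPKM (median 2.73) in DHO, and fell by 5.55 (SE 0.74, adjusted p = 9.00e-08). Il6 lay at 17.2 to 425 FPKM (median 87.5) in HO and 0 to 148 FPKM (median 0.0226) in DHO, and fell by 6.11 (SE 0.769, adjusted p = 3.18e-08). In both, DHO 8 lay inside the HO range, at 434 FPKM of Il1b and 148 of Il6, and without DHO 8 and DHO 9 the highest DHO values were 6.0 and 0.402. Csf3, the growth factor for granulocytes, lay at 79.5 to 374 FPKM (median 145) in HO and 0 to 56.9 FPKM (median 0) in DHO with no overlap (-7.24, SE 0.593, adjusted p = 8.37e-12). The decoy receptor Il1r2 (-6.16, SE 0.496, adjusted p = 5.83e-12) and the restraining cytokine Il10 (-2.92, SE 0.229, adjusted p = 3.58e-12) fell with them. In the high set alone 9 of the 13 passed (median -2.16). Of 24 chemokines and receptors, 21 fell, 1 rose and 2 did not pass (median -3.52), and 15 fell in the high set alone. The neutrophil attractant Cxcl1 lay at 105 to 1061 FPKM (median 352) in HO and 0.531 to 384 FPKM (median 1.3) in DHO (-6.24, SE 0.746, adjusted p = 1.23e-08), and its relatives Cxcl2 (-7.1) and Cxcl3 (-6.58) fell too. The monocyte attractant Ccl2 fell by 5.5 (SE 0.628, adjusted p = 5.12e-09). Ccl9, which attracts myeloid cells in the mouse, did not overlap (-3.32, SE 0.246, adjusted p = 1.18e-12). The 1 that rose was Ccl21a (1.1, SE 0.252, adjusted p = 3.04e-04), which guides lymphocytes and dendritic cells and has near-identical copies in the mouse genome.

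The promoters of Cxcl1, Cxcl2, Cxcl3 and Il6 are shown because these genes fell together with the NF-kB genes and hold a letter match to the NF-kB motif, read as GGGA, then NN for any pair of bases, then TTCC, close to their start. Each line gives the 150 bases before the gene's start in RefSeq (GRCm38.p6, plus strand), with the matching bases in capitals and the rest in lower case.
Cxcl1, chr5:90891095-90891244: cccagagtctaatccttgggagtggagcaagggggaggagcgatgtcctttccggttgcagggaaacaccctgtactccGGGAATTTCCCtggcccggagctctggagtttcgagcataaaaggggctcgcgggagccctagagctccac
Cxcl2, chr5:90903749-90903898: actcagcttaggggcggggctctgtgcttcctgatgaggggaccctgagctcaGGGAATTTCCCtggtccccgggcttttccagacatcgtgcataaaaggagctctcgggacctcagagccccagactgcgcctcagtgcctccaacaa
Cxcl3, chr5:90785951-90786100: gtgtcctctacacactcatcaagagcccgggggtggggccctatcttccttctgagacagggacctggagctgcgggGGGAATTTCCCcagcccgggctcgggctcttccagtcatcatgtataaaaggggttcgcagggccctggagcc
Il6, chr5:30012964-30013113: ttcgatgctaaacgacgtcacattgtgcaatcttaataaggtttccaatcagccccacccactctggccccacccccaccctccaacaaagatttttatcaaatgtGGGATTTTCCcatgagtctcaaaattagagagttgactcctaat
In Cxcl1, Cxcl2 and Cxcl3 the capitals mark 2 overlapping matches, 1 on each strand, which begin 71, 97 and 73 bases before the start. Il6 has 1 match, which begins 44 bases before it. The same motif, searched on both strands in windows of 250 bases before to 50 after the first listed start, occurred in 387 of 27025 RefSeq promoters (1.43%). It occurred in 4 of 17 chemokine promoters (Cxcl10 and the near neighbours Cxcl1, Cxcl2 and Cxcl3). It also occurred in 2 of 16 cytokine promoters and in 1 of 8 of NF-kB subunits and inhibitors (Nfkbia). Of the lists that rose, it occurred in 2 of 16 colonocyte promoters (Aqp8 and Slc5a8), 0 of 11 goblet cell promoters and 0 of 12 promoters of the general epithelium list. A motif of HNF4, searched in the same way, occurred in 129 of the 27025 promoters (0.48%) and in 0 promoters of each of these lists. A match is a description of letters and not a bound site.

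Neutrophil genes made up the list with the lowest median, with 18 of 19 lower and 1 higher (median -6.33). S100a8, a subunit of calprotectin, lay at 2643 to 20950 FPKM (median 9790) in HO and 0 to 1782 FPKM (median 2.75) in DHO, and fell by 10.16 (SE 0.978, adjusted p = 1.95e-10). Camp, the cathelicidin of neutrophil granules, lay at 47.8 to 389.6 FPKM (median 151) in HO and 0 to 5.06 FPKM (median 0.177) in DHO (-7.51, SE 0.379, adjusted p = 3.12e-16). The collagenase Mmp8 lay at 44.3 to 671 FPKM (median 273) in HO and 0 to 62.8 FPKM (median 0.0473) in DHO (-7.68, SE 0.616, adjusted p = 5.55e-12). The defining granule genes were listed at 0 in some DHO libraries, and DHO 8 held the highest DHO value of all 3, at 1782, 5.06 and 62.8 FPKM. The list score ran over 5.85 to 8.28 in HO, and over 0.06 to 5.59 in DHO, where DHO 8 scored 5.59, DHO 9 3.59 and the rest at most 1.06. Ly6g, which encodes the marker that labels mouse neutrophils, went against the list. It lay at 139 to 331 FPKM (median 217) in WT, 9.73 to 489.5 FPKM (median 40.6) in HO and 219 to 812 FPKM (median 324) in DHO (2.78, SE 0.434, adjusted p = 1.37e-06). In HO its highest value was that of HO 2.

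Among 23 monocyte and macrophage genes 21 fell and 2 rose (median -2.79). Cd14, a co-receptor for endotoxin, lay at 241 to 644 FPKM (median 383) in HO and 39.3 to 188 FPKM (median 47.9) in DHO (-2.72, SE 0.243, adjusted p = 4.65e-11). Itgam, the integrin CD11b of myeloid cells, lay at 112 to 405 FPKM (median 273) in HO and 2.24 to 60.9 FPKM (median 2.81) in DHO (-5.52, SE 0.39, adjusted p = 4.55e-13), and neither gene overlapped. Adgre1, the F4/80 antigen, fell by 2.89 (SE 0.267, adjusted p = 8.67e-11) and the chitinase-like protein Chil3 by 9.47 (SE 0.63, adjusted p = 1.37e-13). The 2 that rose were Cx3cr1 (1.15, SE 0.219, adjusted p = 2.72e-05), a receptor of resident intestinal macrophages, and Plac8 (1.21, SE 0.16, adjusted p = 7.45e-08), which colonic epithelium is also known to express. Matrix enzymes and the plasminogen system fell in 16 of 17 members (median -3.36), and in 11 in the high set (median -1.99). The stromelysin Mmp3 lay at 87.3 to 3005 FPKM (median 804) in HO and 0.604 to 698 FPKM (median 2.02) in DHO (-6.89, SE 0.842, adjusted p = 1.82e-08), and Mmp14, a membrane protease, lay at 197 to 374 FPKM (median 241) in HO and 33.8 to 149 FPKM (median 41.9) in DHO (-2.29, SE 0.205, adjusted p = 4.63e-11). Complement and acute phase genes fell in 13 of 14 (median -2.8), C3 by 3.33 (SE 0.339, adjusted p = 5.68e-10) and the haemoglobin-binding Hp by 8.42 (SE 0.629, adjusted p = 1.35e-12). Orm1, another acute phase gene, had the smallest p of the list, at 20.5 to 62.9 FPKM (median 32.8) in HO and 0 to 0.433 FPKM (median 0.0329) in DHO (-6.1, SE 0.153, adjusted p = 5.21e-24). Of 12 prostaglandin genes 7 fell and 1 rose. Ptgs2, the inducible cyclooxygenase, fell by 4.11 (SE 0.724, adjusted p = 9.23e-06), and Hpgd, the epithelial enzyme that degrades prostaglandins, rose by 3.47 (SE 0.331, adjusted p = 1.62e-10).

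**Figure D4:**
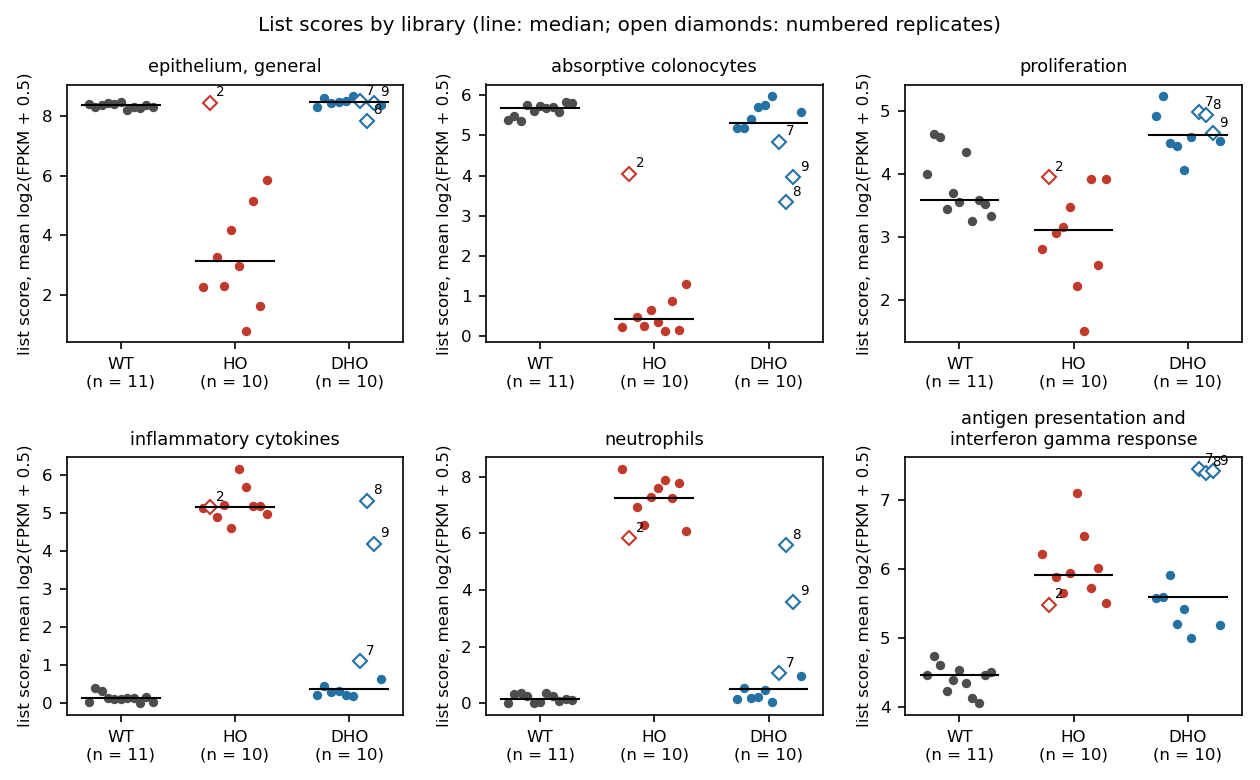
List scores (mean log2(FPKM + 0.5) of the tested members) for 6 gene lists in 11 WT, 10 HO and 10 DHO libraries. Each point is a library, the line is the group median, and the numbered diamonds are HO 2 and DHO 7, 8 and 9. Epithelial and colonocyte scores separate DHO from HO except for HO 2, cytokine and neutrophil scores leave DHO 8 and DHO 9 between the groups or at HO levels, and the interferon gamma score is highest in DHO 7, 8 and 9.

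Interferon-response genes differed less between DHO and HO than cytokine genes did by list median. Of 24 genes of antigen presentation and the interferon gamma response, 8 rose, 5 fell and 11 did not pass (median -0.01). All 24 were higher in DHO than in WT (12.5% of all genes were), by a median of 1.57. H2-Aa, a chain of MHC class II, lay at 76.2 to 189 FPKM (median 129.7) in WT, 86.9 to 669.7 FPKM (median 195) in HO and 143 to 864 FPKM (median 321) in DHO, and rose by 0.81 (SE 0.278, adjusted p = 0.0107) from HO to DHO. Ciita, the activator of class II genes, rose by 1.69 (SE 0.28, adjusted p = 3.84e-06) and the immunoproteasome subunit Psmb10 by 0.89 (SE 0.172, adjusted p = 3.40e-05). The class I heavy chain H2-D1 fell by 0.81 (SE 0.141, adjusted p = 7.25e-06) and the GTPase Gbp5 by 2.53 (SE 0.604, adjusted p = 4.61e-04). Without DHO 7, DHO 8 and DHO 9, H2-Aa was at 0.38 (adjusted p = 0.182) and did not pass, nor did Gbp5 in the high set, at -0.94 (adjusted p = 0.33). The balance of this list differed between libraries. DHO 7, DHO 8 and DHO 9 scored 7.45, 7.39 and 7.42, above all HO libraries (5.48 to 7.09), and the other 7 DHO libraries scored 5.0 to 5.9, against 4.05 to 4.74 in WT. Without DHO 7, DHO 8 and DHO 9, 3 of the 24 genes were higher than in HO and 12 lower (median -0.49), and 17 were higher than in WT. In the low set alone 5 were higher and 11 lower than in HO, and in the high set alone 7 and 2.

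Ido1, the tryptophan-degrading enzyme that interferon gamma induces and which was chosen after its values were seen, lay at 0.63 to 4.3 FPKM (median 1.49) in WT, 1.22 to 9.91 FPKM (median 2.0) in HO and 3.26 to 368 FPKM (median 12.9) in DHO (3.09, SE 0.65, adjusted p = 1.05e-04 between HO and DHO). DHO 7, DHO 8 and DHO 9 had 308, 177 and 368 FPKM, and the other 7 DHO libraries had no more than 25.8. The groups overlapped, since HO 2, HO 6 and HO 10 lay above the lowest DHO library, and without DHO 7, DHO 8 and DHO 9 the difference was 1.66 (adjusted p = 3.14e-04). The chemokines Cxcl9 and Cxcl10, which interferon gamma also induces, went the other way. Cxcl10 lay at 28.7 to 606 FPKM (median 58.3) in HO and 2.2 to 479.7 FPKM (median 5.16) in DHO and fell by 2.4 (SE 0.766, adjusted p = 0.00656), while Cxcl9 fell by 3.07 (SE 0.812, adjusted p = 0.00132), both with DHO 7, DHO 8 and DHO 9 inside the HO range. Neither passed in the high set, where they were at -0.38 (adjusted p = 0.779) and -1.0 (adjusted p = 0.432), and without these 3 libraries the differences were -4.07 (adjusted p = 2.56e-09) and -4.85 (adjusted p = 4.97e-11). Of 20 genes of the type I interferon response, 5 rose, 2 fell and 13 did not pass (median 0.33). Without DHO 7, DHO 8 and DHO 9, 3 rose and 7 fell (median -0.07), while the median was 1.05 in the high set and -0.05 in the low set. Oas1a, a sensor of double-stranded RNA, lay at 8.12 to 18.1 FPKM (median 10.4) in HO and 27.7 to 64.5 FPKM (median 41.7) in DHO (1.8, SE 0.155, adjusted p = 2.05e-11) and the RNA sensor Ifih1 rose by 1.36 (SE 0.138, adjusted p = 5.70e-10), both with no overlap. Ifit1 (0.88, SE 0.414, adjusted p = 0.0599) and Isg15 (0.34, SE 0.398, adjusted p = 0.46), classical targets of this pathway, did not pass, though Ifit1 did after rescaling of the libraries. Ddx58, the RNA sensor RIG-I, fell by 0.6 (SE 0.218, adjusted p = 0.0163) but differed by 0.01 (adjusted p = 0.983) in the high set.

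Genes listed for regenerating epithelium and YAP targets had 5 of 16 members higher and 9 lower (median -0.77). Ly6a, the Sca-1 antigen, lay at 210.1 to 429 FPKM (median 288) in WT, 499.6 to 1526 FPKM (median 675) in HO and 689.7 to 2244 FPKM (median 886) in DHO (0.66, SE 0.215, adjusted p = 0.00767), and every DHO library exceeded every WT library. Without DHO 7, DHO 8 and DHO 9 its difference from HO was 0.3 (adjusted p = 0.15). The EGF family ligand Areg rose by 2.47 (SE 0.489, adjusted p = 4.89e-05) and its relative Ereg fell by 3.46 (SE 0.67, adjusted p = 3.58e-05), with -2.03 (adjusted p = 0.086) in the high set. Ccn2, a YAP target of stroma too, fell by 1.56 (SE 0.297, adjusted p = 2.88e-05). DHO 8 and DHO 9 had the highest scores of all 31 libraries on this list, 6.44 and 6.74, followed by HO 2 at 5.90. In the high set alone 6 members were higher and 3 lower (median 0.04), and in the low set 2 and 10 (median -1.28). Immediate early genes fell in 7 of 13 and rose in 1. Ier3 (-3.94, SE 0.405, adjusted p = 6.89e-10) and the phosphatase Dusp1 (-2.98, SE 0.342, adjusted p = 5.44e-09) fell without overlap, Jun fell by 0.98 (SE 0.193, adjusted p = 4.42e-05) and Fos rose by 0.68 (SE 0.29, adjusted p = 0.0397), with 0.61 (adjusted p = 0.0814) without DHO 8 and DHO 9. Of 17 genes of the unfolded protein response, 4 rose and 7 fell (median 0.11), and in the high set alone 2 and 3. After rescaling 5 rose and 4 fell. The goblet cell sensor Ern2 (3.6, SE 0.354, adjusted p = 2.89e-10) rose and the stress factors Atf4 (-0.69, SE 0.124, adjusted p = 1.26e-05) and Ddit3 (-0.61, SE 0.139, adjusted p = 2.59e-04) fell.

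Stromal lists moved apart. Among 16 fibroblast and collagen genes 12 fell and 1 rose (median -1.31), and in the high set alone 7 fell and 0 rose (median -0.8). The proteoglycan gene Dcn lay at 611 to 2044 FPKM (median 1428) in HO and 68.1 to 871 FPKM (median 163) in DHO (-2.8, SE 0.332, adjusted p = 1.05e-08), and the collagen Col1a1 fell by 1.31 (SE 0.261, adjusted p = 5.00e-05), but was at -0.65 (adjusted p = 0.182) in the high set. Endothelial genes fell in 14 of 15 (median -2.14). The vascular cadherin Cdh5 lay at 21.9 to 56.6 FPKM (median 34.6) in HO and 2.64 to 21.1 FPKM (median 4.02) in DHO, without overlap (-2.67, SE 0.246, adjusted p = 8.14e-11). Sele, the selectin of inflamed vessels, fell by 3.5 (SE 0.244, adjusted p = 3.63e-13). Genes of enteric neurons and glia fell in 12 of 13 (median -1.16), among them the neuropeptide Vip (-2.6, SE 0.259, adjusted p = 3.62e-10). Smooth muscle genes rose in 8 of 13 and 5 did not pass (median 0.69). Myosin Myh11 lay at 36.5 to 111 FPKM (median 60.8) in HO, 41.3 to 273 FPKM (median 116) in DHO and 142 to 409 FPKM (median 189.7) in WT (0.91, SE 0.292, adjusted p = 0.00657 between HO and DHO). Smooth muscle passed for 0 of 13 members in the high set alone and for 10 in the low set, and Myh11 was at 0.33 (adjusted p = 0.402) in the high set. Against WT 12 of the 13 were lower in DHO, but 0 were in the low set, 3 without DHO 8 and DHO 9 and 1 without DHO 7, DHO 8 and DHO 9.

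Among 15 genes for signals from the stroma to the stem cells, 9 fell and 3 rose (median -0.71), and in the high set alone 4 fell and 1 rose (median -0.14). Rspo3, the R-spondin that sustains the crypts, lay at 9.36 to 21.5 FPKM (median 16.3) in HO and 1.26 to 11.2 FPKM (median 3.68) in DHO (-1.92, SE 0.258, adjusted p = 1.01e-07), and the BMP antagonist Grem1 fell by 2.61 (SE 0.462, adjusted p = 9.92e-06). Gli1, a target of the hedgehog signal that epithelium sends to stroma, rose by 0.96 (SE 0.136, adjusted p = 2.75e-07). Its level over all DHO libraries was below WT, by 0.59 (adjusted p = 0.00343). In the low set, and without DHO 7, DHO 8 and DHO 9, 0 genes of this list were lower than in WT.

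Of 11 T and NK cell genes, 1 rose and 2 fell (median 0.27). In the low set alone 0 rose and 5 fell (median -0.09), and in the high set alone 1 rose and 0 fell (median 0.86). The T cell receptor component Cd3e lay at 0.22 to 3.89 FPKM (median 0.685) in HO and 0.59 to 4.5 FPKM (median 0.929) in DHO and did not pass (0.3, SE 0.31, adjusted p = 0.389). The cytotoxic protease Gzmb fell by 0.65 (SE 0.293, adjusted p = 0.0493) but was higher than in WT by 1.8 (adjusted p = 1.92e-04), and its difference from HO was -0.16 (adjusted p = 0.767) in the high set. B and plasma cell genes rose in 7 of 13 and fell in 1 (median 1.36). Tnfrsf17, the plasma cell receptor BCMA, lay at 0 to 0.206 FPKM (median 0.117) in HO and 0.262 to 2.44 FPKM (median 1.26) in DHO with no overlap (1.36, SE 0.202, adjusted p = 6.19e-07), and the antibody joining chain Jchain rose by 1.73 (SE 0.489, adjusted p = 0.00237), with 1.71 (adjusted p = 0.0845) in the high set. The gene that fell was Sdc1 (-1.08, SE 0.182, adjusted p = 4.73e-06), which epithelial and stromal cells express as well. Of 13 mast cell and eosinophil genes only 4 were tested, of which 2 rose and 1 fell (median 0.74). The mast cell protease Cma1 rose by 3.41 (SE 0.294, adjusted p = 2.14e-11) with no overlap. The mast cell gene Cpa3 was under the limit for testing, at no more than 0.385 FPKM in any library.

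Of 8 tested genes of position along the gut, 5 rose and 2 fell (median 1.58). Hoxb13, which marks the distal colon, lay at 314 to 493 FPKM (median 413) in WT, 0 to 19.4 FPKM (median 0.592) in HO and 55.2 to 461 FPKM (median 322) in DHO (6.9, SE 0.546, adjusted p = 4.25e-12). Its highest HO values were those of HO 10 (19.4 FPKM) and HO 8 (12.5 FPKM). Apart from HO 2 these libraries also had the highest general epithelium scores in HO, 5.84 and 5.17. The part of epithelial content in the Hoxb13 difference was not tested, and the difference does not measure position. Hoxa13 rose by 1.79 (SE 0.25, adjusted p = 2.16e-07) and Hoxa11 fell by 1.9 (SE 0.142, adjusted p = 1.34e-12). HO 2 stood apart in these genes. It had 0 FPKM of Hoxb13, 0 of Hoxd13 against 6.64 to 20.9 in the other HO libraries, 0.351 of Hoxa13 against 2.52 to 5.84, and 17.5 of Hoxb6, a gene of more proximal positions, against 0.84 to 3.05. The labels do not state where along the colon each sample was taken, and the part of position in the values of HO 2 was not tested. The ileal bile acid binder Fabp6 lay at 9.07 to 14.8 FPKM (median 11.8) in WT, 0 to 0.605 FPKM (median 0.0315) in HO and 1.6 to 145 FPKM (median 35.1) in DHO (5.58, SE 0.501, adjusted p = 5.19e-11). Clock genes divided, with 3 of 14 higher, 4 lower and 7 that did not pass (median -0.28). Arntl (1.29, SE 0.227, adjusted p = 8.86e-06) and Npas2 (1.98, SE 0.226, adjusted p = 5.11e-09) were higher and Per1 (-1.24, SE 0.218, adjusted p = 8.63e-06) and Nfil3 (-2.6, SE 0.339, adjusted p = 6.07e-08) lower, all 4 with no overlap. For Arntl the WT libraries divided, with WT 1, WT 2, WT 3 and WT 7 at 3.74 to 4.25 FPKM and the others at 0.723 to 1.59. HO lay at 0.732 to 1.25 and DHO at 1.77 to 4.19, where all libraries but DHO 5 and DHO 6 fell between the WT levels. Against WT 8 of the 14 clock genes were lower in DHO and 2 higher (median -1.075), but 0 were lower in the low set. The labels do not state the hour of tissue collection.

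**Figure D5:**
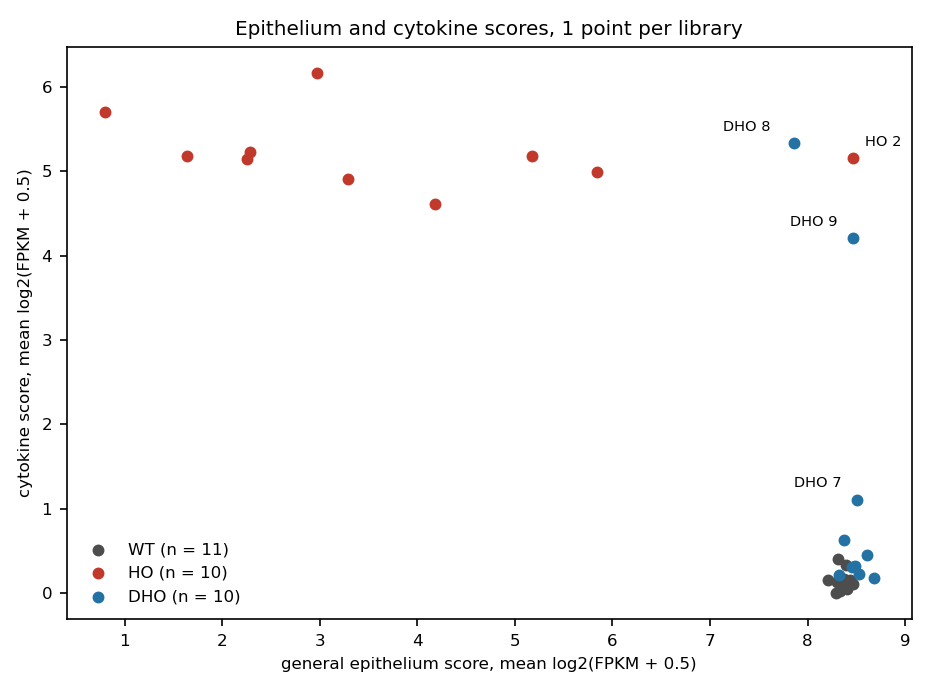
General epithelium score against inflammatory cytokine score (both mean log2(FPKM + 0.5)), 1 point per library, for 11 WT, 10 HO and 10 DHO libraries. HO libraries spread over epithelium scores of 0.8 to 8.46 at cytokine scores of 4.61 to 6.16, most DHO libraries lie with WT at the lower right, and HO 2, DHO 8 and DHO 9 combine a high epithelium score with a high cytokine score.

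The scores of epithelium and inflammation did not move as 1 quantity across libraries. HO 2 scored 8.46 on the general epithelium and 5.15 on cytokines, within the range of the other HO libraries (4.61 to 6.16). HO 7, with the lowest epithelium score of 0.8, had a cytokine score of 5.70. DHO 8 scored 7.86 on epithelium and 5.33 on cytokines, and DHO 9 scored 8.46 and 4.20. The other 8 DHO libraries had cytokine scores of 0.18 to 1.11, of which DHO 7 was the highest. In DHO 8 and DHO 9 colonocyte genes were lower than in the rest of DHO, with scores of 3.35 and 3.96 against 4.85 to 5.98. Xenobiotic metabolism followed, at 1.69 and 2.27 against 3.69 to 4.93. Proliferation scores of both, 4.94 and 4.65, stayed within the range of the other DHO libraries (4.07 to 5.24). For Tradd the DHO libraries of the high set, DHO 8 and DHO 9 included, had 1.36 to 3.89 FPKM, far below the lowest HO library (12.4 FPKM).

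How far the DHO libraries lay from WT depended on the libraries taken. Over all DHO libraries 2719 genes (21.2%) differed from WT, 1604 (12.5%) higher and 1115 (8.7%) lower. In the low set alone (6 DHO, 6 WT and 5 HO libraries fitted) 48 were higher and 20 lower, and in the high set alone (4, 5 and 5) 2701 and 2401. Without DHO 8 and DHO 9 there were 792 and 514, and without DHO 7, DHO 8 and DHO 9 there were 381 and 243. All these fits also held HO libraries, whose spread entered the p-values against WT. A low count, here or for a list above, thus does not show that DHO and WT were alike. The comparison with WT shares its DHO libraries with that against HO and is given for levels only.

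Besides Tradd, 6 genes had all 10 DHO libraries outside the range of every HO and WT library, all of them higher. They were Adgrf1, Piga, Lap3, Rcc1, Dnajc11 and 6720468P15Rik. Adgrf1, an adhesion receptor, lay at 0.701 to 1.57 FPKM (median 1.02) in WT, 0.0657 to 0.827 FPKM (median 0.106) in HO and 1.6 to 9.14 FPKM (median 4.84) in DHO. Lap3, a leucine aminopeptidase, lay at 32.7 to 42.5 FPKM (median 36.4) in WT, 13.7 to 31.8 FPKM (median 21.8) in HO and 43.1 to 143 FPKM (median 53.6) in DHO. For each of them the lowest DHO library lay close to the highest library outside DHO. Piga, an enzyme of GPI anchor synthesis, is an example, at 5.32 to 7.11 FPKM (median 5.85) in DHO against no more than 5.18 in WT.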

How the data were processed

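Per the labels' protocols, TRIzol RNA of the colon went into the VAHTS Universal V6 library kit. Reads were processed with fastp, HISAT2, HTSeq and the mm10 genome, per the submitters' processing notes, which give no versions in the sources used here. The authors deposited FPKM values for 27623 genes and 31 libraries, of which 26637 symbols matched RefSeq (GRCm38.p6). Raw counts were not used here. Depth relative to WT 1 was read from the commonest ratio of FPKM values under 0.2, shared by at least 239 genes per library. The absolute total was set by 285 of 6174 genes, those whose RefSeq span gave the commonest total. No library pair was identical, and the highest correlation was 0.996 (DHO 3 and DHO 4).

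A gene was tested where 10 libraries or more reached 1 FPKM, and was fitted as log2(FPKM + 0.5) in limma 3.58.1 (R 4.3.3, trend and robust options), with 1 mean per group over all 31 libraries. Contrasts were adjusted by Benjamini-Hochberg over 12812 genes. The moderated test was tested on simulated data. FPKM ratios of low genes are understated by the 0.5 added. The genome of the files and of the sequences is the same build, and gene positions are RefSeq's.

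The comparison, the 47 gene lists and the tests were chosen with earlier results of these data known. Named were Tradd, Map3k7 and Ripk1, the 12 largest increases and the 12 largest decreases among genes with a mean of at least 10 FPKM in the higher group, the first 3 members of each list with those of smallest p in either direction, and genes with all DHO libraries outside both other groups. Chosen after their values were seen were Ido1, Clca4b, Tnfrsf1a, Tnfrsf1b, Tnfaip3, Csf3, Retnlb, Cxcl9, Cxcl10, Nos2, Duox2, Pigr, Agr2, Map3k8, Ikbkb, Chuk, Rnf31, Rbck1, Gsdmd, Ereg, Jchain and Guca2a. Some list members, among them Cyp11b1, Ighm and Trbc2, were not analysed here, and some members that the naming rule picks are not reported here. Alternatives were another pseudocount, filter, scaling and weighting, the Gm15564 sets, and fits without HO 2, DHO 7, DHO 8 and DHO 9, of which the fit without DHO 7, DHO 8 and DHO 9 together was added after the data were seen.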

Additional observations from a re-analysis of the deposited data

Results flagged for a closer look

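A library was marked when, within its group of 10, the gap to its nearest neighbour on the log2 scale as a share of the group's range exceeded Dixon's critical value for 10 samples. By chance about 1 in 20 groups is marked. List scores gave 10 marks in 94 groups, and the 185 tested genes named here gave 57 in 370, so the number of marks is above that rate, and 42 of the 67 belong to HO 2. The values in parentheses are the gap as a share of the range.

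HO 2 was the highest HO library in the scores of absorptive colonocytes (0.703), goblet cells (0.668), tight junctions (0.501), epithelial defence (0.528) and gasdermin C genes (0.626). The same held for xenobiotic metabolism (0.71) and small intestinal genes (0.841), and HO 2 was the lowest in complement (0.605). Among colonocyte and transport genes it was highest for Aqp8 (0.885), Slc26a3 (0.844), Guca2a (0.787), Car1 (0.543), Car9 (0.583) and Sult1b1 (0.491). Among goblet and secretory genes it was highest for Clca1 (0.848), Muc2 (0.728), Tff3 (0.59), Zg16 (0.552), Retnlb (0.89), Ern2 (0.719) and Neurog3 (0.893). It was also highest for Spink1 (0.743), Sycn (0.616), Klk1 (0.631), Gsdmc4 (0.603), Reg3g (0.676), Duox2 (0.489), Saa2 (0.519) and Cdx2 (0.612). Of the death and TNF pathway genes it was highest for Ripk3 (0.725), Gsdmd (0.701), Nlrp6 (0.583) and Tradd (0.544). The remaining high values were those of Plac8 (0.672), Ly6a (0.514), Hoxb6 (0.625) and Uqcrc2 (0.5). It was lowest in HO for Grem1 (0.661), Hoxa13 (0.631), Hoxd13 (0.708), Wfdc21 (0.503) and Ikbke (0.47).

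DHO 8 was the lowest DHO library in the general epithelium score (0.565), in Epcam (0.544) and in Sult1b1 (0.58). It was the highest for the neutrophil genes Camp (0.722), Ngp (0.742) and Mmp8 (0.56). It was also the highest for Olfm4 (0.903), Orm1 (0.878), Cd14 (0.53), Sele (0.492) and Tnip1 (0.479). DHO 7 was the highest for Tnfsf10 (0.641) and Lap3 (0.625) and the lowest for Bmf (0.52).

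HO 6 was the highest in the T and NK cell score (0.468), in Ciita (0.593) and in H2-Aa (0.482), and the lowest for Arg1 (0.55). HO 10 was the highest for Atp12a (0.612), Mptx1 (0.582) and Cma1 (0.509) and the lowest for Tnfsf14 (0.549). DHO 5 was the lowest for Mki67 (0.487) and DHO 10 for Traf2 (0.539), and DHO 6 was the lowest for Hoxd13 (0.652).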

How the results depend on the processing

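The counts of higher and lower genes stayed within 1.5 times of 4996 and 3809 under every other setting except the lower genes without a filter on low values, where 6121 of 26871 genes were lower beside 6001 higher; more genes were tested there. The share of calls that were higher was 56.7%, and lay between 49.5% without the filter and 65.5% after rescaling each library to the same sum. Quantile normalization gave 50.3% and a median of 0.01 over all genes. Without HO 2, DHO 8 or DHO 9, or several of these and DHO 7, 5018 to 5185 genes were higher and 3849 to 4047 lower. In 3 named genes the direction turned with a pass either over all libraries or under the other setting. Map3k7 was at 0.0421 and Ddx58 at 0.00601 in the high set alone (adjusted p = 0.762 and 0.983), and Ifit2 was at -0.921 without DHO 7, DHO 8 and DHO 9 (adjusted p = 0.0159, in place of 0.01 (SE 0.473, adjusted p = 0.991)). The cause was not tested. In the high set alone several differences passed but were smaller by over 1.5 times, among them S100a9 (-6.45), Mmp3 (-4.51), Il1b (-3.29), Nos2 (-2.56), Nlrp3 (-2.36), Tnfrsf1b (-1.55), Grem1 (-1.44), Ascl2 (1.25), Tnfrsf17 (0.89), Tnfrsf1a (-0.71), Acadm (0.7), Sdc1 (-0.69), Cflar (-0.55), Gli1 (0.54) and H2-D1 (-0.51). In the 276 tested genes named by the rule or a later choice, 124 values no longer passed under these settings and 25 newly passed. Another 51 turned direction with no pass over all libraries or under the other setting, while 4760 kept their direction and call. Of the 38 lists with at least 10 tested members, 33 had a median of the same sign in the low and the high set, 37 without DHO 8 and DHO 9 and 38 without HO 2. The lists whose sign differed between the sets were regenerating epithelium, the unfolded protein response, both interferon lists, and T and NK cells. After rescaling, the interferon gamma list had 10 members higher and 3 lower, and after quantile normalization 5 and 7. A fit with Xist as a covariate was not run, since Xist was at most 0.0112 FPKM in every library. No paired analysis was possible because the labels give the libraries of different groups no shared replicate numbers.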

Other observations

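The difference between DHO and HO was itself compared between the low and the high Gm15564 set by an interaction term in the same limma fit. It differed for 568 of the 12812 genes at an adjusted p of 0.05 (3454 at an unadjusted p of 0.05). Without DHO 8 and DHO 9, both in the high set, it differed for 0 genes (1180 at an unadjusted p of 0.05). That fit kept only DHO 7 and DHO 10 as DHO libraries of the high set, too few for its 0 to show that the sets do not differ. The sets were defined from the data and are not groups of the study.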
